A study of Mus musculus with 23 samples.

Results

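The 8 genes described here encode the core of the MYC network: the activators Myc and Mycn, their shared partner Max, and the repressors Mxd1, Mxd3, Mxd4, Mxi1 and Mnt. They were taken from 12393 genes measured on the arrays, through probe sets that the platform annotation pairs with a single symbol. In all, 17 probe sets met this rule, and the main one of each gene was the one with the highest mean log2 intensity over all 23 arrays. A probe set is a group of short probes on an Affymetrix array that are read together as 1 value.

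MYC and MYCN are transcription factors that bind DNA as dimers with MAX, at the E-box CACGTG, and raise genes of ribosome assembly, nucleotide synthesis and growth. The proteins of the MXD family and MNT also pair with MAX at the same site, where they recruit histone deacetylases and repress. SNF5, the product of Smarcb1, belongs to the core of the chromatin remodeller SWI/SNF and is known to bind MYC. EZH2 is the enzyme of Polycomb complex PRC2 that methylates histone H3 and silences genes.

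RNA came from mouse embryonic fibroblasts (MEFs), which were taken at E13.5, and from CD8+ T cells of mice aged 10 to 15 weeks, in 6 groups. The fibroblast groups were Ezh2-deficient MEFs (3 arrays) with 3 wild-type arrays, and MEFs deficient in both Snf5 and Ezh2 (3 arrays) with another 3 wild-type arrays. The T cell groups were CD8+ cells purified from Snf5-deficient lymphomas (5 arrays) and CD8+ cells purified from wild-type mice (6 arrays). There was no group of MEFs lacking Snf5 alone. Inactivation in the MEFs was conditional. The recombinase and its promoter, the strain, and how many embryos or animals stand behind each group are not stated in the labels used here. The MEFs were meant to show how Snf5 and Ezh2 oppose each other in gene expression, and the lymphomas what changes when tumours form without Snf5.

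The labels could be checked on the targeted genes. Ezh2 read log2 5.63 to 5.81 in Ezh2-deficient MEFs against 7.81 to 7.95 in their wild-type arrays. Smarcb1 read 6.56 to 6.83 in Snf5 Ezh2-deficient MEFs against 9.08 to 9.25 in theirs. Ezh2 read 6.65, 6.10 and 6.38 in Snf5 Ezh2-deficient MEFs against 8.02 to 8.07 in their wild-type arrays. In the contrast of Snf5 Ezh2-deficient minus Ezh2-deficient MEFs, Ezh2 was higher by 0.52 (limma adjusted p = 0.00812). The mutant lines thus differed in Ezh2 signal as well as in Smarcb1. Smarcb1 in lymphomas read 8.30, 8.49, 5.81, 5.64 and 8.67, against 10.38 to 11.48 in wild-type CD8 cells. Lymphoma replicates 1, 2 and 5 thus showed more signal, at percentile 50.6, 52.2 and 53.9 against 31.2 and 30.0 in replicates 3 and 4. In wild-type CD8 cells replicates 3 and 4 were also the lowest, 10.38 and 10.51 against 11.12 to 11.48 in the rest. The reason for either pattern was not tested. In the second MEF set the 3 wild-type arrays were repeats of the first, with a spread between summaries of 0.0219 to 0.0241 for the same number against 0.137 to 0.152 for different numbers, so each was counted once and both mutant lines shared all their controls. Wild-type CD8 replicates 1 and 6 stood apart from the other 4: the mean log2 of 6 B cell markers was 10.61 and 10.65 there against 6.91 to 7.86, and that of 13 myeloid markers was 12.62 and 12.60 against 6.48 to 8.62. The mean of 7 CD8 T cell markers was lower in them, 11.09 and 10.59 against 12.71 to 13.31. In the lymphomas it was 11.55, 11.79, 12.98, 12.27 and 11.38, so all but replicate 3 lay below wild-type replicates 2 to 5. None of the 7 CD8 markers on the T cell arrays, and none of 10 fibroblast markers on the MEF arrays, lay in the lowest 25% of values. The T cell comparison is therefore given with all 6 wild-type arrays and with replicates 2 to 5 only.

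The E-box was searched in RefSeq promoter windows of GRCm38.p6 that run from 250 bases before to 50 bases after each transcript start. CACGTG reads the same on both strands. The windows of 8.09% of all genes with an entry held it (2187 of 27025), and of the members it was found in 3 of the 7 that had a window. The sites of these 3 genes, Max, Mxd4 and Mnt, are shown because they are the network's own members that carry the letters which its dimers bind. Each run is 24 bases long, printed 5′ to 3′ on the strand of the gene, and the capitals mark the E-box.
Max, chr12:76962237-76962260, minus strand, E-box beginning 3 bases before the start: gagcccggtCACGTGttagggggc
Mxd4, chr5:34187915-34187938, minus strand, 219 bases before the start: ctgggccacCACGTGctgttgcta
Mnt, chr11:74830792-74830815, plus strand, 123 bases before the start: cacccaagcCACGTGtgcgcgcgc
No match was found in the windows of Mycn, Mxd1, Mxd3 and Mxi1, which says only that these letters are not in those 300 bases. Myc was not searched.

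**Figure D1:**
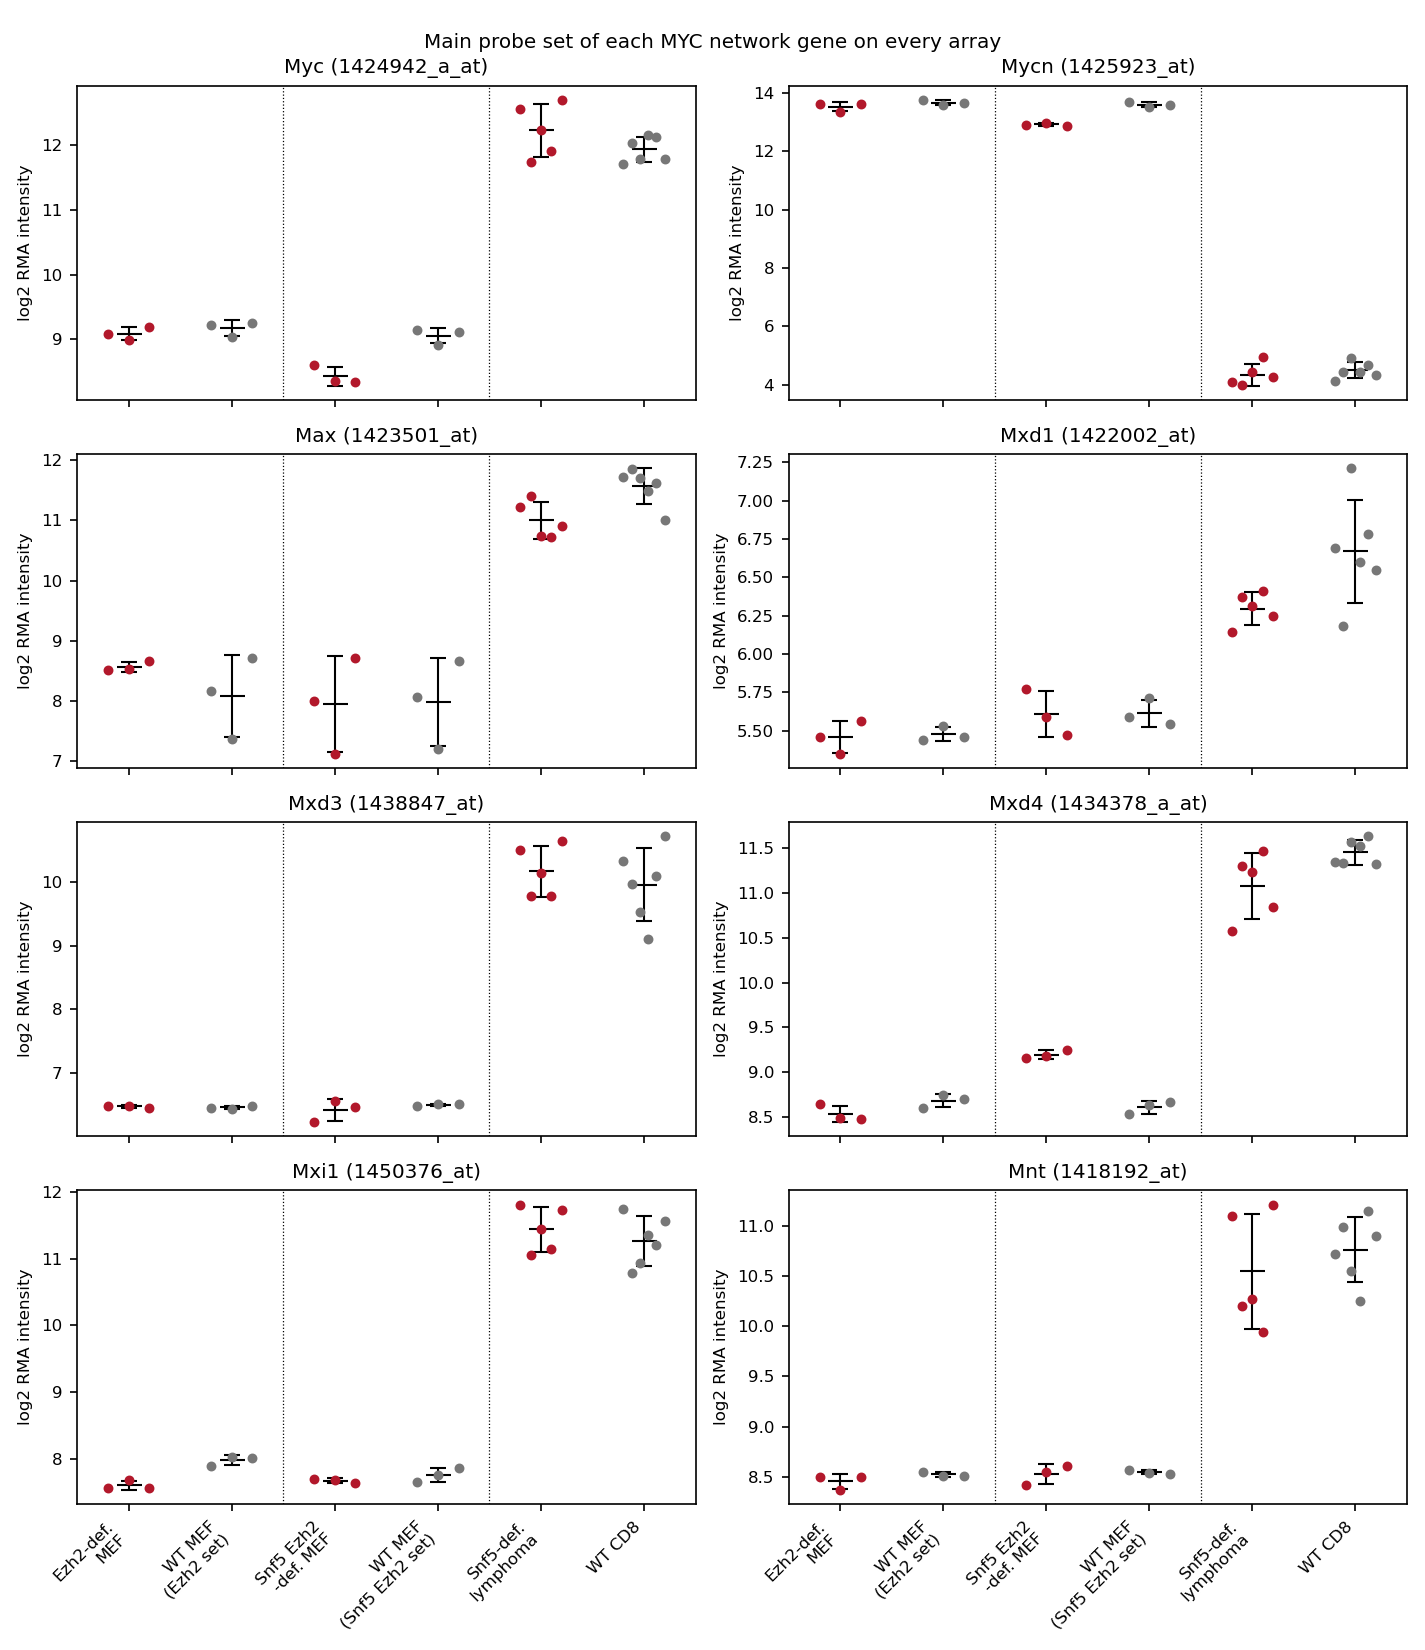
Log2 RMA intensity of the main probe set of each of the 8 genes on every array, with the mean and SD of each group as bars. Red points are mutant MEFs or lymphomas and grey points are wild-type cells. The vertical axes differ between panels, and the dotted lines separate sets of arrays that were summarised apart. Myc and the main Mycn probe set are lower, and Mxd4 higher, in Snf5 Ezh2-deficient MEFs than in wild-type MEFs.

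In the fibroblasts that lacked both Snf5 and Ezh2, the activator Myc fell and the repressor Mxd4 rose. The main probe set of the activator Mycn was lower there too, but its other 2 probe sets were not. Max, Mxd1, Mxd3, Mxi1 and Mnt did not pass the test. In the fibroblasts that lacked Ezh2 alone, Mxi1 fell and the other 7 did not pass. None of the 8 passed in the lymphomas against all 6 wild-type CD8 arrays, where 16.8% of all genes were called. Of 45 genes that MYC is known to raise, 20 were higher there, beside 9.13% of all genes. The part of proliferation and of other cell types in this was not tested. Comparisons were made with limma on log2 values over all 22626 probe sets, with Benjamini-Hochberg adjustment and a threshold of 0.05, and "called" means past it. In bulk RNA, fewer cells of a type and less RNA per cell cannot be told apart.

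Myc read 8.60, 8.36 and 8.34 in Snf5 Ezh2-deficient MEFs, against 9.14, 8.92 and 9.12 in wild-type MEFs of the same set. Every mutant array lay below every wild-type array. Myc thus fell 1.54-fold (log2 difference -0.63, SE 0.092, 95% confidence interval -0.83 to -0.42; limma adjusted p = 0.000705). In Ezh2-deficient MEFs it read 9.08, 8.99 and 9.19, against 9.23, 9.04 and 9.26 in wild-type MEFs. These groups overlapped, and the difference of -0.09 (SE 0.092) did not pass (adjusted p = 0.575). The direct contrast of Snf5 Ezh2-deficient with Ezh2-deficient MEFs gave -0.54 for Myc (limma adjusted p = 0.00187), so the lines differed in it. That contrast removes the offset between both array summaries through the controls and ignores the error of that offset.

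Mycn, the relative of Myc that is best known from embryonic tissue and neuroblastoma, had 3 probe sets, and they disagreed. The main one, 1425923_at, read 12.91, 12.97 and 12.88 in Snf5 Ezh2-deficient MEFs against 13.69, 13.53 and 13.58 in wild-type MEFs. The groups were apart, and the signal fell 1.60-fold (log2 difference -0.68, SE 0.0827; limma adjusted p = 0.000233). In Ezh2-deficient MEFs it read 13.62, 13.35 and 13.63 against 13.75, 13.59 and 13.67, a difference of -0.14 that did not pass (adjusted p = 0.337). The direct contrast of the mutant lines was -0.54 (limma adjusted p = 0.000916).

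The lower value for Mycn rested on this probe set alone. Its signal stood between percentile 98.9 and 99.7 of all probe sets on every MEF array, with a range of 11.6 to 22.1 for the T cells. The other Mycn probe sets, 1425922_a_at and 1417155_at, lay between percentile 7.7 and 20.3 on every MEF array. At that low signal, 1417155_at was 1.24-fold higher in Snf5 Ezh2-deficient MEFs (log2 difference 0.31, limma adjusted p = 0.00818), and 1425922_a_at gave 0.18 (adjusted p = 0.07). The mean of all 3 gave -0.06 (adjusted p = 0.489). Which transcript each of them reads was not tested, and the level of Mycn in these fibroblasts cannot be stated from the array.

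**Figure D2:**
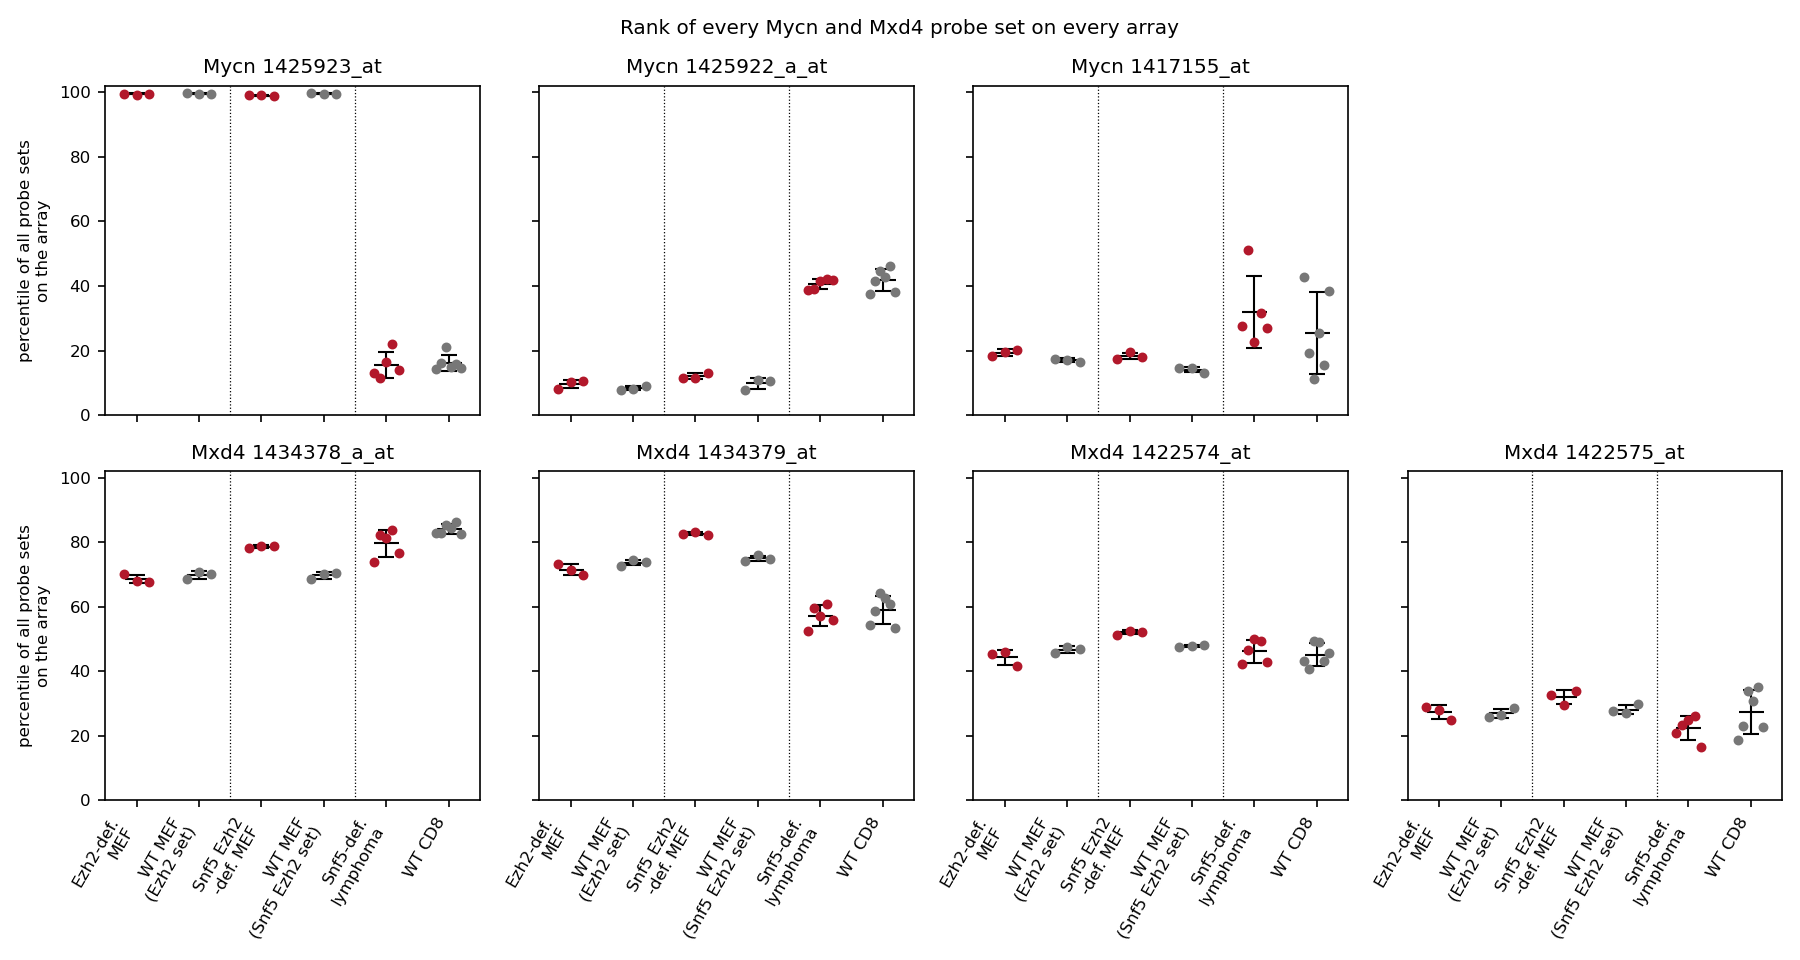
Percentile of each Mycn (upper row) and Mxd4 (lower row) probe set among all probe sets on its array, with group mean and SD as bars. Red points are mutant MEFs or lymphomas and grey points are wild-type cells. One Mycn probe set lies at 98.9 to 99.7 on all MEF arrays while the other two lie at 7.7 to 20.3. The 4 Mxd4 probe sets are each higher in Snf5 Ezh2-deficient than in wild-type MEFs.

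Max, the obligate partner, could not be read closely in the fibroblasts. Snf5 Ezh2-deficient MEFs read 8.00, 7.12 and 8.71 and their wild-type arrays 8.07, 7.20 and 8.66. Ezh2-deficient MEFs read 8.51, 8.53 and 8.66, against 8.16, 7.36 and 8.71 in wild-type MEFs. Replicate 2 was the lowest and replicate 3 the highest in both the doubly deficient and the wild-type group. The differences were -0.04 (95% confidence interval -0.90 to 0.83, limma adjusted p = 0.96) and 0.49 (-0.38 to 1.35, limma adjusted p = 0.469). Neither passed. The fit treated the arrays as unpaired, so the swing by replicate number shared by the doubly deficient and wild-type groups counted as spread and widened the intervals. Only under that treatment do differences anywhere within those wide intervals remain compatible with the values.

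Among the repressors, Mxd4 changed most. Its main probe set read 9.16, 9.18 and 9.25 in Snf5 Ezh2-deficient MEFs against 8.53, 8.63 and 8.67 in wild-type MEFs. The groups did not overlap, and Mxd4 rose 1.51-fold (log2 difference 0.59, SE 0.0652, 95% confidence interval 0.45 to 0.74; limma adjusted p = 0.000133). All 4 Mxd4 probe sets were called higher, with differences of 0.57 (1434379_at, adjusted p = 0.000194), 0.33 (1422574_at, 0.00922) and 0.32 (1422575_at, 0.034) for the other 3. In Ezh2-deficient MEFs the main probe set read 8.64, 8.49 and 8.48 against 8.60, 8.74 and 8.70. Those groups overlapped, with a difference of -0.14 (limma adjusted p = 0.218). The direct contrast of the mutant lines was 0.73 (limma adjusted p = 3.99e-05).

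Mxi1, another repressor that pairs with MAX, was lower in the line without Ezh2 alone. It read 7.57, 7.69 and 7.57 in Ezh2-deficient MEFs against 7.90, 8.03 and 8.02 in wild-type MEFs. The groups were apart, and Mxi1 fell 1.30-fold (log2 difference -0.38, SE 0.0636, 95% confidence interval -0.52 to -0.23; limma adjusted p = 0.0168). A second probe set, 1425732_a_at, read 7.14, 7.21 and 7.10 against 7.53, 7.52 and 7.50 and fell by 0.37 (adjusted p = 0.0431). The call of the main probe set was lost without Ezh2-deficient replicate 1 (-0.36, adjusted p = 0.0622), without wild-type replicate 2 (-0.35, 0.084) and without wild-type replicate 3 (-0.36, 0.0579). In Snf5 Ezh2-deficient MEFs it read 7.71, 7.69 and 7.64 against 7.66, 7.77 and 7.86, and the difference of -0.09 did not pass (limma adjusted p = 0.372). The direct contrast of the mutant lines was 0.29 (limma adjusted p = 0.00736), and 0.26 for the second probe set (0.0376). The offset added to the Snf5 Ezh2-deficient arrays there was 0.22 for the main and -0.04 for the second probe set. Without it the printed values of the main probe set overlap between the mutant lines.

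The remaining repressors gave small differences in the MEFs. Mnt, which is found in most cell types and antagonises MYC, read 8.42 to 8.61 in Snf5 Ezh2-deficient and 8.37 to 8.50 in Ezh2-deficient MEFs, against 8.53 to 8.57 and 8.51 to 8.55 in their wild-type arrays. Its differences were -0.02 (95% confidence interval -0.17 to 0.13) and -0.07 (-0.22 to 0.08). Mxd3, a member of the family associated with dividing cells, gave -0.07 in Snf5 Ezh2-deficient and 0.02 in Ezh2-deficient MEFs. Mxd1, which is known for its rise as cells differentiate, gave 0.00 and -0.02, but it read between 5.35 and 5.77 on all MEF arrays, at percentile 22.0 to 29.1.

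Counted by main probe set, and so with Mycn as lower, 3 of the 8 members were called in Snf5 Ezh2-deficient MEFs, 1 higher and 2 lower, where 27.5% of all genes were called (13.2% higher, 14.3% lower). In Ezh2-deficient MEFs 1 member was called, lower, against 3.49% of all genes (2.47% lower). The direct contrast of the mutant lines called 4 members, 2 higher and 2 lower, against 29.9% of all genes (16.3% higher, 13.6% lower). The groups did not overlap for 3 members in Snf5 Ezh2-deficient MEFs (43.9% of all genes), for 2 in Ezh2-deficient MEFs (33.7%) and for 4 in the direct contrast (44.2%). Over probe sets, 7 of 17 were called in Snf5 Ezh2-deficient MEFs (25.9% of all probe sets) and 2 in Ezh2-deficient MEFs (3.14%). The median difference of the members was -0.05 and -0.08, beside -0.00 and 0.00 over all genes. With 3 arrays against 3, an exact permutation test cannot give a p below 0.1 and was not used.

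**Figure D3:**
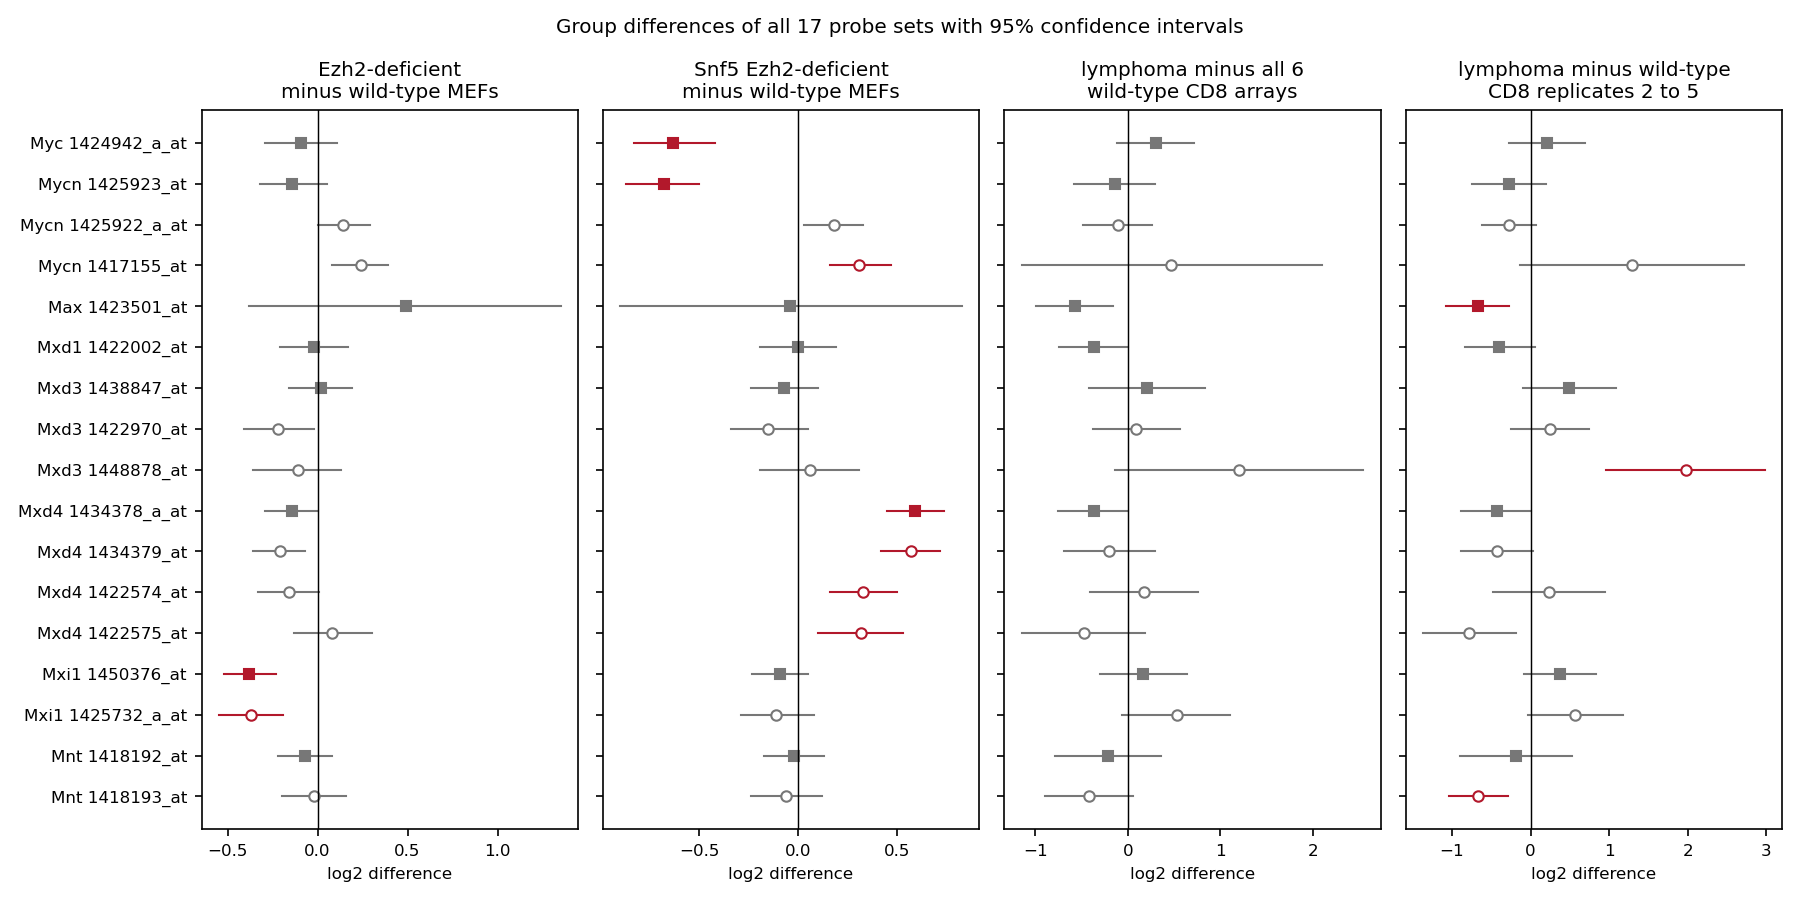
Log2 difference of each of the 17 probe sets in 4 comparisons, with 95% confidence intervals from the limma fit. Squares are main probe sets and open circles the other probe sets of the same gene; red marks a probe set past an adjusted p of 0.05. In the second panel Myc and the main Mycn probe set lie left of 0 and the 4 Mxd4 probe sets right of it, and in the third panel no probe set is red. The horizontal scales differ between panels.

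Of 6 other network genes that were measured, 1 was higher and 1 lower in Snf5 Ezh2-deficient MEFs (13.2% and 14.3% of all genes). None was called in Ezh2-deficient MEFs (3.49% of all genes). Mycl, the third MYC paralogue, fell by 0.49 (limma adjusted p = 0.0267), and Mga, a MAX partner that acts in a repressive Polycomb-type complex, rose by 0.44 (0.0187). Mycs, Mlx, Mlxip and Mlxipl gave -0.08, -0.06, -0.04 and 0.02 there. In the direct contrast of the mutant lines Mycl differed by -0.75 (adjusted p = 0.00305) and Mga by 0.43 (0.0204).

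Of 15 cofactors and regulators of MYC turnover, 1 was higher and 3 lower in Snf5 Ezh2-deficient MEFs, beside 13.2% and 14.3% of all genes, and the list median was -0.10 against -0.00. Fbxw7, the ubiquitin ligase subunit that marks MYC for degradation, rose by 0.77 (limma adjusted p = 8.94e-05). Skp2, which is part of another MYC ubiquitin ligase, fell by 0.34, the deacetylase Hdac2 by 0.26 and the ATPase Ruvbl2 by 0.26 (adjusted p between 0.0139 and 0.0255). In Ezh2-deficient MEFs 0 were higher and 2 lower, beside 1.02% and 2.47% of all genes: the kinase Aurka, which stabilises MYCN protein, fell by 0.62 (adjusted p = 0.023) and Skp2 by 0.46 (0.0305), and with single arrays left out this count ranged from 0 to 2. Aurka and Skp2 are also genes of dividing cells, and 17 of 27 proliferation genes were lower in those MEFs (2 without wild-type replicate 2, 3 without wild-type replicate 3 or without Ezh2-deficient replicate 1), with a list mean of 8.10, 8.15 and 8.28 against 8.52, 8.80 and 8.68. The part of proliferation in these differences was not tested.

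The genes that MYC is known to raise went both ways in the doubly deficient fibroblasts. Of 45 measured, 4 were called higher and 11 lower in Snf5 Ezh2-deficient MEFs, beside 13.2% and 14.3% of all genes, and the list median was -0.13 against -0.00 over all genes. The higher ones were Ccnd2, a cyclin of the first gap phase (0.82, limma adjusted p = 2.5e-05), Cad, which starts pyrimidine synthesis (0.75, 0.000591), the folate enzyme Mthfd1 (0.54, 0.000139) and the nuclear importer Ipo4 (0.37, 0.00144). The lower ones included Nop56, a core protein of small nucleolar RNPs, which fell by 0.77 (adjusted p = 0.00026), the nucleolar RNA methyltransferase Nop2 (-0.46, 0.0026), the iron importer Tfrc (-0.39) and the purine enzyme Ppat (-0.39). The list mean was 9.93, 9.81 and 9.89 in these mutants against 9.94, 9.98 and 9.95 in wild-type MEFs, so every mutant array lay below every wild-type array by a small margin. In Ezh2-deficient MEFs 1 of the 45 was called, Ppat, the entry enzyme of purine synthesis, which fell by 0.39 (limma adjusted p = 0.0449), and the median was -0.10 against 0.00. No target was called there when any single array was left out, with the replicate block, or with the 6 arrays of that set alone.

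Genes that MYC is known to lower were mixed. Of 10 measured in Snf5 Ezh2-deficient MEFs 3 were higher and 2 lower, beside 13.2% and 14.3% of all genes, and the median was 0.04 against -0.00. Gas1, a gene of growth arrest, rose by 2.45 (limma adjusted p = 0.000167) and the NF-kappaB inhibitor Nfkbia by 0.28, while the phosphatase Dusp1 fell by 0.67 and the cell cycle inhibitor Cdkn2b by 0.41. In Ezh2-deficient MEFs the inhibitor Cdkn1b was called, at -0.41 (adjusted p = 0.0327), and the other 9 were not.

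In the T cells, Myc read 12.56, 11.74, 12.23, 11.91 and 12.69 in the lymphomas, against a lowest of 11.71, a median of 11.91 and a highest of 12.15 in the 6 wild-type CD8 arrays. Lymphoma replicates 1, 3 and 5 lay above all wild-type arrays and replicates 2 and 4 among them. The difference of 0.30 (SE 0.191, 95% confidence interval -0.12 to 0.72) did not pass (limma adjusted p = 0.322; exact two-sided permutation p = 0.147). Against wild-type replicates 2 to 5 it was 0.21 (adjusted p = 0.491).

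Max read 11.23, 11.41, 10.74, 10.72 and 10.90 in the lymphomas, against a lowest of 11.01, a median of 11.67 and a highest of 11.86 in wild-type CD8 cells. The groups overlapped only through wild-type replicate 6. Against all 6 arrays the difference was -0.57 (SE 0.188; limma adjusted p = 0.0635; exact permutation p = 0.0173, 1 of 17 probe sets tested in this way). Against replicates 2 to 5 the groups did not overlap, and Max was 1.60-fold lower (-0.67, SE 0.179; adjusted p = 0.0238; exact permutation p = 0.0159). The call also appeared without wild-type replicate 6 alone (-0.68, limma adjusted p = 0.0207) and without lymphoma replicate 2 (-0.67, 0.0429). In the comparison with replicates 2 to 5, 8 of 13 myeloid markers were also higher and 3 of 6 B cell markers lower. The share of all genes was 13.2% each way.

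Mxd4 read 10.57, 11.30, 11.23, 11.47 and 10.84 in the lymphomas, against a lowest of 11.32, a median of 11.43 and a highest of 11.63 in wild-type CD8 cells. Lymphoma replicates 1, 2, 3 and 5 lay below every wild-type array and replicate 4 did not. The difference was -0.37 (limma adjusted p = 0.171; exact permutation p = 0.0325), and -0.43 against replicates 2 to 5 (adjusted p = 0.134). The other Mxd4 probe sets gave -0.20 (1434379_at), 0.18 (1422574_at) and -0.47 (1422575_at) against all 6 arrays. None was called, and their exact permutation p-values were 0.39, 0.519 and 0.169. Mxd1 gave -0.37, as the main Mxd4 probe set did (limma adjusted p = 0.163, exact permutation p = 0.0325). The permutation values of 0.0325 are unadjusted, from 17 probe sets tested in this way. Mxi1 gave 0.17 (adjusted p = 0.609) and Mnt -0.21 (0.609), with groups that overlapped. The main Mycn probe set lay near the floor in both groups, at 3.98 to 4.94 in the lymphomas and 4.12 to 4.91 in wild-type cells. Mycn 1425922_a_at stood higher on its array, at percentile 38.8 to 42.3 in the lymphomas and 37.4 to 46.1 in wild-type cells. It read 6.77 to 7.16 in the lymphomas against 6.74 to 7.46, groups that overlapped, and its difference of -0.11 did not pass (limma adjusted p = 0.701).

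Probe sets of Mxd3 and Mnt were called only against wild-type replicates 2 to 5, and the main probe sets of the same genes were not. Mxd3 1448878_at read 9.16, 8.20, 8.01, 7.43 and 8.48 in the lymphomas, against 5.34 to 7.05 in those 4 arrays and 8.42 and 8.78 in replicates 1 and 6. Its difference was 1.20 against all 6 (limma adjusted p = 0.214) and 1.97 against replicates 2 to 5 (3.93-fold, SE 0.449; adjusted p = 0.0124). The proliferation list ran alongside it, with a mean of 11.87 to 12.14 in the lymphomas, 11.09, 9.06, 9.31 and 11.17 in wild-type replicates 2 to 5 and 11.83 and 11.98 in replicates 1 and 6. Main Mxd3 gave 0.21 and 0.49 in both comparisons (adjusted p = 0.652 and 0.193). Mnt 1418193_at differed by -0.42 against all 6 arrays (limma adjusted p = 0.222) and by -0.67 against replicates 2 to 5 (adjusted p = 0.0183), where main Mnt gave -0.19 (0.669).

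Of the 8 members, 0 were called in the lymphomas against all 6 wild-type arrays by limma, where 16.8% of all genes were called, and 2 had an unadjusted p under 0.05. Against replicates 2 to 5 it was 1 member, Max, beside 26.4% of all genes (13.2% lower). The groups did not overlap for 0 members (12.8% of all genes) and for 1 (27.1%). Over probe sets the counts were 0 of 17 (15.3% of all probe sets) and 3 of 17 (24.6%). The median difference of the members was -0.18 and -0.23, beside -0.07 and -0.11 over all genes.

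Myc did not pass the test in the lymphomas, but many of its targets did. Of the 45 genes that MYC is known to raise, 20 were called higher and 0 lower, where 9.13% of all genes were higher and 7.71% lower, and the list median was 0.55 against -0.07. Against wild-type replicates 2 to 5 it was 18 higher and 0 lower, beside 13.2% of all genes each way, with a median of 0.58 against -0.11. Their mean log2 was 11.96, 11.84, 11.94, 12.05 and 12.15 in the lymphomas, against a range of 11.29 to 11.51 in wild-type CD8 cells, so the groups did not overlap. Called genes included Cad (1.65, SE 0.335; limma adjusted p = 0.00821), the serine enzyme Shmt1 (1.10, 0.00559), the ribosome assembly factor Ppan (1.03, 0.0131) and Odc1, the first enzyme of polyamine synthesis (1.02, 0.00883). The translation factor Eif4e (0.64), the lactate enzyme Ldha (0.65) and 3 factors of ribosome assembly, Nop2 (0.88), Bysl (0.86) and Pes1 (0.85), were also higher. Leaving out lymphoma replicate 4 or replicate 5 reduced the count to 13.

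**Figure D4:**
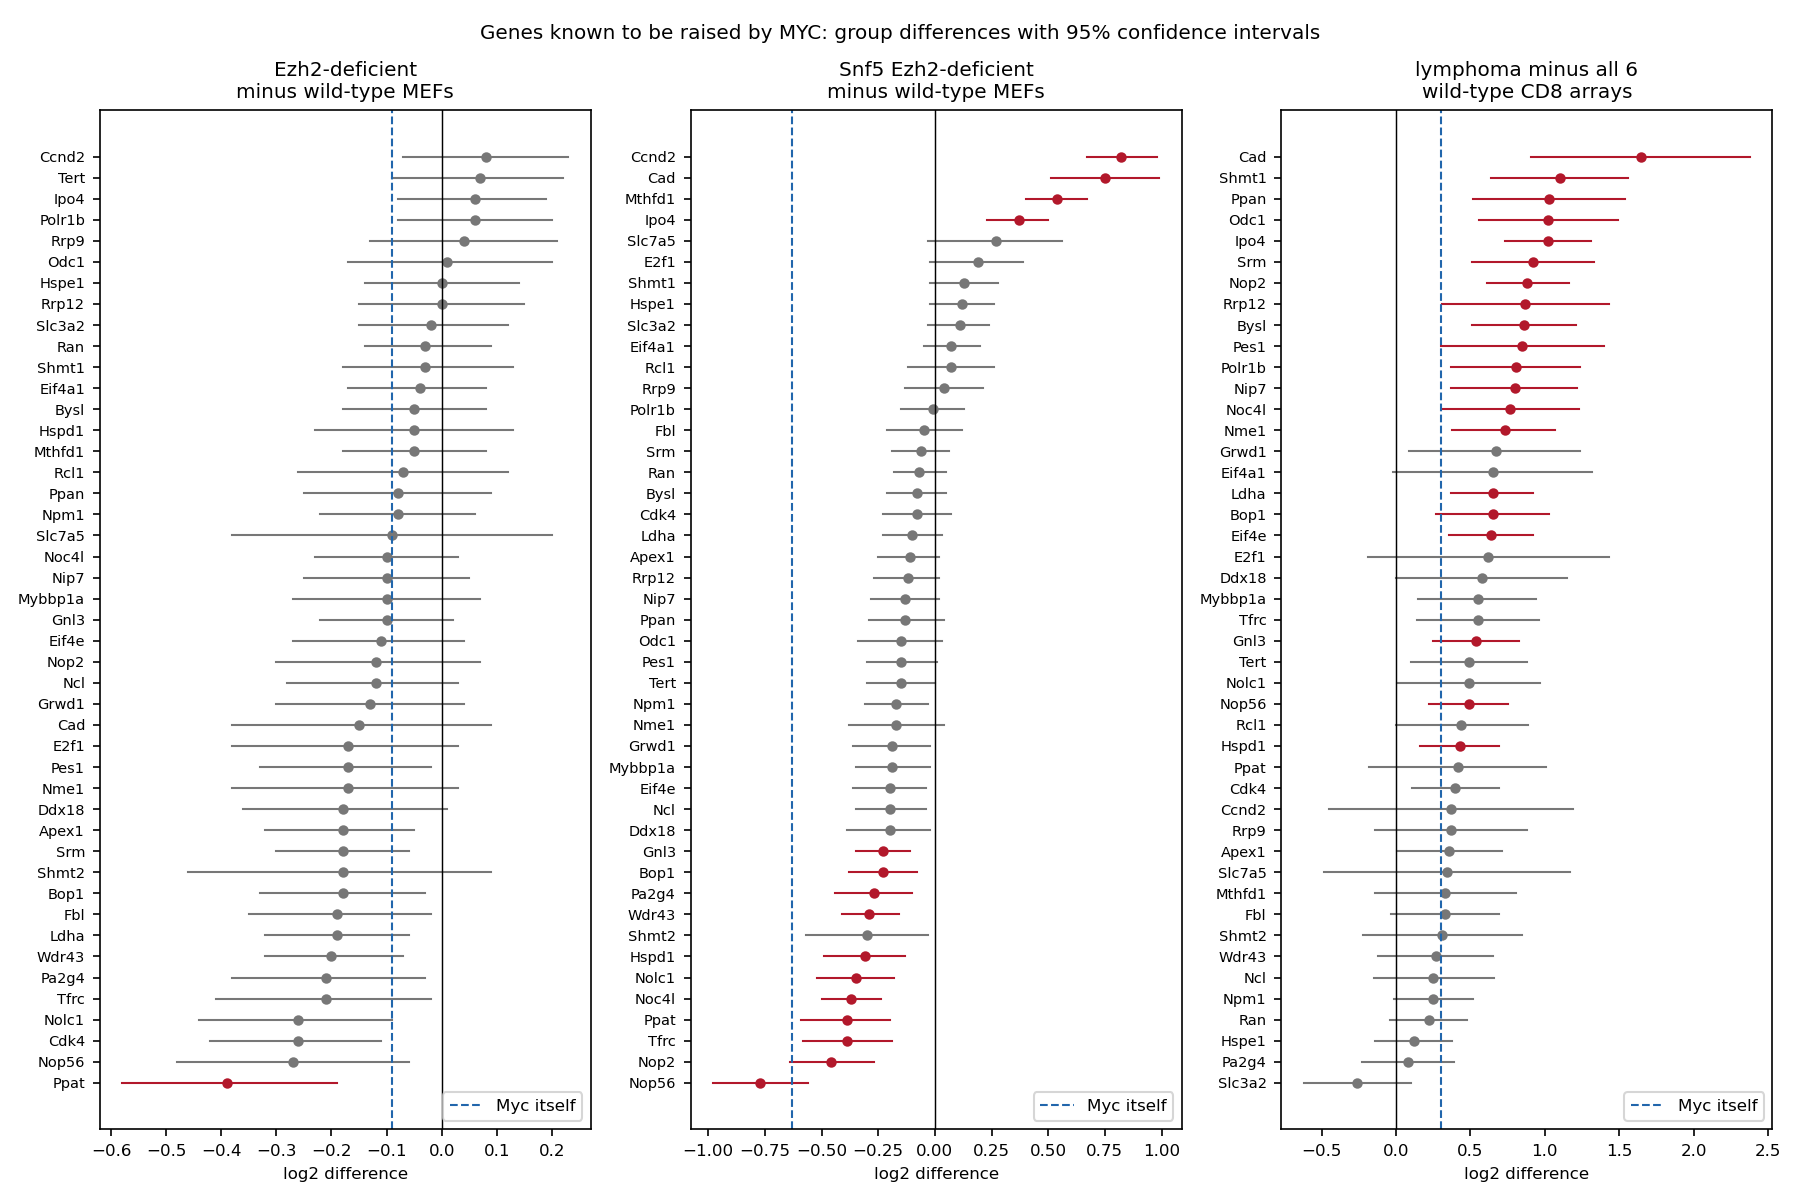
Log2 difference of the 45 genes known to be raised by MYC in 3 comparisons, ordered by size within each, with 95% confidence intervals from the limma fit. Red marks genes past an adjusted p of 0.05, and the dashed line is the difference of Myc itself. In lymphomas 20 genes are higher and none lower, in Snf5 Ezh2-deficient MEFs 4 are higher and 11 lower, and in Ezh2-deficient MEFs 1 is lower. The horizontal scales differ.

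Markers of dividing cells and of other cell types were also compared between the T cell groups. Proliferation genes were called higher for 4 of 27 against all 6 wild-type arrays (9.13% of all genes). Against replicates 2 to 5 it was 18 of 27 (13.2% of all genes). The mean of the 6 B cell markers was 5.66 to 6.30 in the lymphomas against 6.91 to 10.65 in wild-type cells, and that of the 13 myeloid markers 8.64 to 10.78 against 6.48 to 12.62. Against all 6 wild-type arrays 1 of the 6 B cell markers was called lower, where 7.71% of all genes were lower. There 0 of the 13 myeloid markers were called. Against replicates 2 to 5 it was 3 B cell markers lower and 8 myeloid markers higher, beside 13.2% of all genes each way. The myeloid median was 2.35. The part of these cells and of proliferation in the differences of the targets and of Max was not tested.

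The E-box was found in the promoter windows of 14 of 38 targets with a window (36.8%), beside 8.09% of all genes. It was in 7 of the 17 called higher in the lymphomas (41.2%) and in 7 of the 21 not called (33.3%). Sites of 4 called targets are shown, as examples of the letters that MYC and MAX read beside the members' own sites above. The format is the same, with the E-box in capitals, in GRCm38.p6. Positions after the start count the start base itself, and those before it do not.
Ipo4, chr14:55635656-55635679, minus strand, 15 bases after the start: cggagtctcCACGTGccgatcctc
Nop2, chr6:125131814-125131837, plus strand, 60 bases before the start: tccctggatCACGTGtgttccggt
Pes1, chr11:3963968-3963991, plus strand, 3 bases after the start: taggcagggCACGTGcgggaggaa
Nme1, chr11:93968276-93968299, minus strand, 18 bases before the start: gcggggaacCACGTGaggccgggg
Nme1, of a second transcript start, chr11:93968040-93968063, minus strand, 29 bases before that start: ttgatacgcCACGTGggctcgcct
Ipo4 was higher by 1.02 in the lymphomas (limma adjusted p = 0.000755), Nop2 by 0.88 (0.00118), Pes1 by 0.85 (0.0433, and 0.0649 against wild-type replicates 2 to 5) and Nme1, a nucleotide kinase, by 0.73 (0.011).

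Genes that MYC is known to lower split in the lymphomas, with 2 of 10 higher and 2 lower, beside 9.13% and 7.71% of all genes. The cell cycle inhibitors Cdkn1a and Cdkn2b rose by 3.85 (limma adjusted p = 0.00311) and 2.38 (0.0388), while the stress gene Gadd45a fell by 2.32 (0.00109) and Cdkn1b by 1.17 (0.0137). Cdkn1a averaged 12.20 ± 0.324 (SD, n = 5) in the lymphomas and 8.36 ± 1.57 in wild-type CD8 cells (n = 6). The Cdkn2b groups overlapped. Against wild-type replicates 2 to 5, Cdkn1a, Cdkn2b, Gadd45a and Cdkn1b gave 4.76, 3.31, -2.18 and -1.37. There 2 of the 10 were again higher and 2 lower, beside 13.2% of all genes each way.

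Of the 15 cofactors, 3 were higher and 0 lower in the lymphomas, beside 9.13% and 7.71% of all genes, and the list median was -0.02 against -0.07. The deacetylase Hdac1 rose by 0.90 (limma adjusted p = 0.00223), and the ATPases Ruvbl1 and Ruvbl2, which join MYC in chromatin complexes, rose by 0.82 each (0.0052 and 0.0111). Against wild-type replicates 2 to 5 it was 5 higher and 0 lower, beside 13.2% of all genes each way, with Aurka (1.86) and Skp2 (1.05) among them. Of the 6 other network genes 1 was called, lower, where 7.71% of all genes were lower (13.2% against replicates 2 to 5). It was Mlxip, a glucose-sensing relative that pairs with MLX. Mlxip fell by 0.94 (limma adjusted p = 0.0118), and by 0.98 against replicates 2 to 5 (0.0176).

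Levels of a probe set cannot be compared between the MEF and T cell arrays on the log2 scale, since these were summarised apart, so ranks within an array are given as a description. Myc stood at percentile 91.0 ± 3.31 in the lymphomas (SD, n = 5) and 88.9 ± 1.81 in wild-type CD8 cells (n = 6), neighbours that overlapped. It stood at 76.6 ± 1.36 in Ezh2-deficient MEFs and 77.1 ± 1.58 in their wild-type arrays, which also overlapped, and was lowest, at 67.2 ± 2.36, in Snf5 Ezh2-deficient MEFs (n = 3 each). Max ranked between percentile 75.4 and 88.2 on the T cell arrays and between 47.6 and 71.2 on the MEF arrays.

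The genes whose main probe set followed Myc most closely were sought separately in both kinds of cell, as a description with no test. Over the 11 T cell arrays these were Htra1, Fabp1 and Gucy1a1 (Pearson r = 0.97, 0.965 and 0.9), and over the 9 distinct MEF arrays Map2k3, Slc25a13 and Cd24a (0.987, 0.986 and 0.984). The points share array runs and group membership.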

How the data were processed

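Expression was measured on 23 Affymetrix Mouse 430A 2.0 arrays. The authors deposited RMA intensity on a linear scale, per the labels' protocols and the values, after Trizol and column extraction. The version of the RMA software is not given. Values were log2-transformed here. The files fell into 3 separately summarised sets (6, 6 and 11 arrays). The number of arrays limits the precision. The labels call the samples biological replicates without naming embryos or animals, so p-values reflect only the spread among them, which may be technical.

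After 64 control probe sets were left out, 22626 were tested (20380 name 1 gene, 691 several, 1555 none). Per probe set, the offset of the repeated controls was used to shift the second MEF set. The 9 distinct MEF arrays (6 residual degrees of freedom) and the 11 T cell arrays (9) were fitted separately with limma 3.58.1 (lmFit, eBayes; R 4.3.3), and p-values were adjusted by Benjamini-Hochberg across all probe sets. A gene's probe set in lists was the one with the highest mean. The fit was tested on simulated data. Beyond the members, named genes were the other network genes, up to 4 called genes of each list with the largest difference per comparison, and the 3 closest to Myc per cell kind. Nop2, Tfrc, Ppat, Ipo4, Eif4e, Ldha, Bysl, Pes1 and Nme1 were chosen after their values were seen. Members and lists were chosen with earlier results of these data known. Same-numbered samples did not deviate together in every pair (correlations of -0.217 to 0.149 in MEFs and 0.0799 to 0.312 in T cells), so numbers were not used as pairs. Alternatives covered scaling, a filter on low values, the log offset, the variance prior, the replicate block, single arrays left out, the choice of probe set and of control arrays.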

Additional observations from a re-analysis of the deposited data

Results flagged for a closer look

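Mycn 1417155_at read 8.35 in lymphoma replicate 2, against 4.96 to 5.80 in the other 4 lymphomas. The gap between it and its nearest neighbour was 0.751 of the whole range of the group. Wild-type CD8 replicates 1 and 6 read 7.49 and 6.78 on the same probe set, against 4.16 to 5.25 in the other 4. Of 34 groups examined for a single outlying array 1 was found, and chance alone flags about 1 in 20. The other Mycn probe sets showed no such array.

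Myc, Mycn, Mxd4 and Mxi1 differed between the mutant fibroblast lines by the direct contrast of Snf5 Ezh2-deficient minus Ezh2-deficient MEFs. The differences were -0.54 for Myc, -0.54 for the main Mycn probe set, 0.73 for Mxd4 and 0.29 for Mxi1 (limma adjusted p = 0.00187, 0.000916, 3.99e-05 and 0.00736). Against wild-type MEFs, Mxi1 was called lower in Ezh2-deficient MEFs and not called in Snf5 Ezh2-deficient MEFs. Its 0.29 includes an offset of 0.22 added to the Snf5 Ezh2-deficient arrays, without which the main probe set overlaps between the lines. The second Mxi1 probe set, with an offset of -0.04, gave 0.26 (limma adjusted p = 0.0376). For the other 3 the call against wild-type MEFs lay in the Snf5 Ezh2-deficient line.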

How the results depend on the processing

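The values of Myc and Mxd4 in Snf5 Ezh2-deficient MEFs kept their call in all 14 alternatives (-0.71 to -0.58 and 0.45 to 0.62). Mycn there lost it when its 3 probe sets were averaged (-0.06), as it did between the mutant lines (-0.14). Over all members and comparisons 452 alternative values kept direction and side of the threshold. The call of Mxi1 in Ezh2-deficient MEFs, and with it the count of called members, ranged from 0 to 1 when single arrays were left out. For the lymphomas that count ranged from 0 to 1 and was 1 against wild-type replicates 2 to 5 and 1 with a replicate block (Max, -0.68). The block treated the replicate numbers as pairs. In the T cells, lymphoma replicates 1, 2, 4 and 5 deviated most like the wild-type array of the same number. Replicate 3 deviated most like number 4. Correlations at the same number were 0.0799 to 0.312, and the labels do not say whether the numbers pair the samples.

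The count of MYC-raised targets lower in Ezh2-deficient MEFs (Ppat alone as reported) was 4 on log2(value + 32), 2 with a variance trend, 0 with the replicate block, 0 with the 6 arrays of its own set and 0 to 0 with single arrays left out. In the contrast of the mutant lines it was 3 to 5 with single arrays left out, and for targets higher in the lymphomas 13 to 20. In Ezh2-deficient MEFs the called genes fell to 213 with the block and 258 on its own arrays, and ranged from 87 to 443 with single arrays left out, where proliferation genes called lower ranged from 2 to 17. With the block 10 proliferation genes and 0 cofactors were lower there, and 1 cofactor on its own arrays. Cofactors called higher in Snf5 Ezh2-deficient MEFs were 2 on log2(value + 32) and 2 without the dimmest probe sets, and 1 cofactor was lower between the mutant lines after quantile normalisation. Cofactors lower in Snf5 Ezh2-deficient MEFs ranged from 1 to 3 with single arrays left out. In the lymphomas the called genes were 2088 against all 6 wild-type arrays and 3273 against replicates 2 to 5, and proliferation genes called higher ranged from 0 to 8 with single arrays left out, the highest without wild-type replicate 6.

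Values that changed sign were all uncalled. With single arrays left out, Max in Snf5 Ezh2-deficient MEFs ranged from -0.42 to 0.37, Mxd3 from -0.14 to 0.02 and Mnt from -0.07 to 0.03. Mxd1 ranged from -0.07 to 0.03 in Ezh2-deficient MEFs, and between the mutant lines Mxd1 from -0.06 to 0.09 and Mxd3 from -0.16 to 0.01. In Ezh2-deficient MEFs Mxd3 gave -0.02 after quantile normalisation and -0.11 as a mean of probe sets, and Mycn 0.08 as such a mean. Averaged probe sets also gave 0.05 for Mxd3 between mutant lines and 0.07 for Mycn in the lymphomas. Max in Snf5 Ezh2-deficient MEFs gave 0.01 without wild-type replicate 1, 0.30 without wild-type replicate 3 and 0.37 without mutant replicate 2. Without mutant replicate 1, Mxd3 gave 0.02 and Mnt 0.03 there, and Mxd1 -0.06 and Mxd3 0.01 between the mutant lines. Mxd1 in Ezh2-deficient MEFs gave 0.01 without wild-type replicate 2 and 0.03 without mutant replicate 2, which also gave -0.03 between the lines. The cause of these moves was not tested. Signal near the floor limits Mxd1 in MEFs and the main Mycn probe set in T cells.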
